A study of Mus musculus with 15 samples.

Results

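The promoters described here are those whose acetylation of histone H3 at lysine 27 (H3K27ac) was higher after ultraviolet irradiation. They were chosen from a table of 21881 promoter windows, each 1000 bases wide, by a log2 ratio of pooled H3K27ac reads, UV over untreated, of at least 0.9 with 16 reads added to each pool, and by at least 100 reads in the UV pool. This rule found 674 promoters, which is 3.08% of all promoters and 7.15% of the 9422 promoters with at least 100 reads in the UV pool. The H3K27ac gain is therefore what chose these promoters and is given as a description, whereas RNA and open chromatin were not used by the rule. The other 8748 promoters with at least 100 reads are the set against which the gaining promoters were compared.

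The cells were NIH3T3, an established mouse embryonic fibroblast line grown in medium with fetal bovine serum. In the UV group they were washed, exposed uncovered to 80 J/m2 of UV-C light (254 nm), given fresh medium with DMSO (1 part in 2000) and collected 6 h later, and the untreated group received no irradiation. The labels do not state whether untreated cells were washed, re-fed or given DMSO, so irradiation, fresh serum and DMSO cannot be told apart. H3K27ac was measured by ChIP-seq and open chromatin by FAIRE-seq in 2 UV and 2 untreated samples each, with 1 input DNA sample, and RNA by RNA-seq in 3 UV and 3 untreated libraries. The chromatin tables hold the reads of both samples of a condition pooled, so a promoter has 1 value per condition, with no replicate spread and no test.

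H3K27ac is deposited by the acetyltransferases p300 and CBP and marks active promoters and enhancers. UV-C light joins neighbouring pyrimidines in DNA into bulky lesions that stall RNA polymerase II, so that long genes are more likely to be hit than short ones. Cells answer with the p53 pathway, in which stabilised p53 binds the promoters of cell cycle inhibitors, death genes and its own inhibitor Mdm2. They also activate stress kinases that switch on immediate early genes such as the Fos and Jun families. FAIRE recovers DNA that is poorly crosslinked to protein, which at promoters is mainly nucleosome-depleted DNA.

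The RNA libraries held 14211528 to 22032701 counts, and the 9 fibroblast markers checked were all expressed, with a summed level of 22761 to 31641 CPM (counts scaled to a common library size) in UV libraries and 19344 to 24412 CPM in untreated libraries. Markers of epithelium, endothelium, leukocytes, muscle and adipocytes, summed for each cell type separately, reached at most 15.5 CPM in any library. UV replicate 1 stood apart: it had 17607 genes detected against 18350 to 18787 in the other 5 libraries, and its counts differed from those of the other UV libraries by a chi-square per degree of freedom of 52.9 and 54.8, while UV replicates 2 and 3 differed by 5.45. Untreated replicate 1 likewise differed from the other untreated libraries by 44.3 and 41.0, while those differed from each other by 16.8. The labels do not say whether replicates came from separate cultures, so the p-values reflect the spread among these 6 libraries, which may be technical.

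The promoter sequences of 4 genes are shown because their RNA or open chromatin carried the results that follow. They run from 250 bases before to 50 after a RefSeq start site on GRCm38.p6. The promoter table is on another build, mm9 per the submitters' processing notes, and gives no coordinates, so it is not known which of several start sites a row stands for. Cdkn1a encodes p21, an inhibitor of cyclin-dependent kinases, and 2 of its start sites are shown: chr17:29090729-29091028 and chr17:29093519-29093818, both on the plus strand. Bbc3, which encodes the pro-apoptotic protein Puma, is shown at chr7:16309333-16309632 on the plus strand. Fosb, which encodes a subunit of the transcription factor AP-1, is shown at chr7:19309996-19310295 on the minus strand. Btg2, which encodes an antiproliferative regulator of mRNA decay, is shown at chr1:134079106-134079405 on the minus strand. Capitals mark matches to a p53 half-site in the upstream Cdkn1a window. In the others they mark the GC box GGGCGG, and in Btg2 also the cyclic AMP response element TGACGTCA and CCAAT, on either strand.
Cdkn1a upstream: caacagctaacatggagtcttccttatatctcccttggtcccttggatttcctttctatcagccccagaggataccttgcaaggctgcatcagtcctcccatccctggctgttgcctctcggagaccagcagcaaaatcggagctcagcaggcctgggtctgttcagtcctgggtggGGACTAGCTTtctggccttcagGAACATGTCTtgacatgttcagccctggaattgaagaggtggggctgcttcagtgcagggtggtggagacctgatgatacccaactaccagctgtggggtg
Cdkn1a downstream: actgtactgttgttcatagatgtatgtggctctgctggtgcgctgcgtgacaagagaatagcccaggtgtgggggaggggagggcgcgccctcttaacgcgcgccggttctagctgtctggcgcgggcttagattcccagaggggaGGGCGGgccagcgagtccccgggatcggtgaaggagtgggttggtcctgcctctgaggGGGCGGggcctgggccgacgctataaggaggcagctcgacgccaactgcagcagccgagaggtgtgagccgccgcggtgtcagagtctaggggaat
Bbc3: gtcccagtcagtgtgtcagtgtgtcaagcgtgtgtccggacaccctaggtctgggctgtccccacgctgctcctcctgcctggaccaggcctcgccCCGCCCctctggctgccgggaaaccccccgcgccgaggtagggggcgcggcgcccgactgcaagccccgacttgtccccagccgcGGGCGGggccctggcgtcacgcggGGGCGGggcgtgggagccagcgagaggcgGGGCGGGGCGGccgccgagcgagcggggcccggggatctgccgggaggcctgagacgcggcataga
Fosb: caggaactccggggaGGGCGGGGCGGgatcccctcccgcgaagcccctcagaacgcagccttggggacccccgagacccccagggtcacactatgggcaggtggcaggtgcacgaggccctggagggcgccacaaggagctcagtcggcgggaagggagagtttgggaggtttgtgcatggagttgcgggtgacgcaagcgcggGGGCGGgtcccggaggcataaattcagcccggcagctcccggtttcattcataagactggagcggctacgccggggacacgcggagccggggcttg
Btg2: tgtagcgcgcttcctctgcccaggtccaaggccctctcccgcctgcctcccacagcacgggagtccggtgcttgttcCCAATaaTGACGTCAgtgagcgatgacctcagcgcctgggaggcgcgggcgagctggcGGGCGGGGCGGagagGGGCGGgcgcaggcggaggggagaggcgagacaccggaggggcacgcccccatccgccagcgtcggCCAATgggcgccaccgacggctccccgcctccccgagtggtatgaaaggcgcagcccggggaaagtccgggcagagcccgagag

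The gains were mostly moderate and spread over many genes. The 674 promoters had a median of 656.5 H3K27ac reads in the UV pool, against 284.5 in the untreated pool, and a median log2 ratio of 1.11. Of these, 431 lay under a log2 ratio of 1.2, and 27 reached 2 or more. The nearest promoters inside the threshold were Anapc11 (log2 ratio 0.90, with 1509 UV and 801 untreated reads), Picalm (1336 UV and 708 untreated reads) and Slc35e1 (509 UV and 265 untreated reads). The nearest outside were Mir344d-2 (165 UV and 81 untreated reads), Lrrc56 (721 UV and 379 untreated reads) and Tmub2 (579 UV and 303 untreated reads). By RefSeq annotation the members were 628 protein-coding genes, 21 long non-coding RNAs, 12 microRNAs, 4 small nucleolar RNAs, 4 transcribed pseudogenes and 1 pseudogene, and 4 had no match. They lay on all autosomes and X. On chromosome 8, 8.95% of the promoters with at least 100 reads were members, against 5.09% on chromosome 6.

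**Figure D1:**
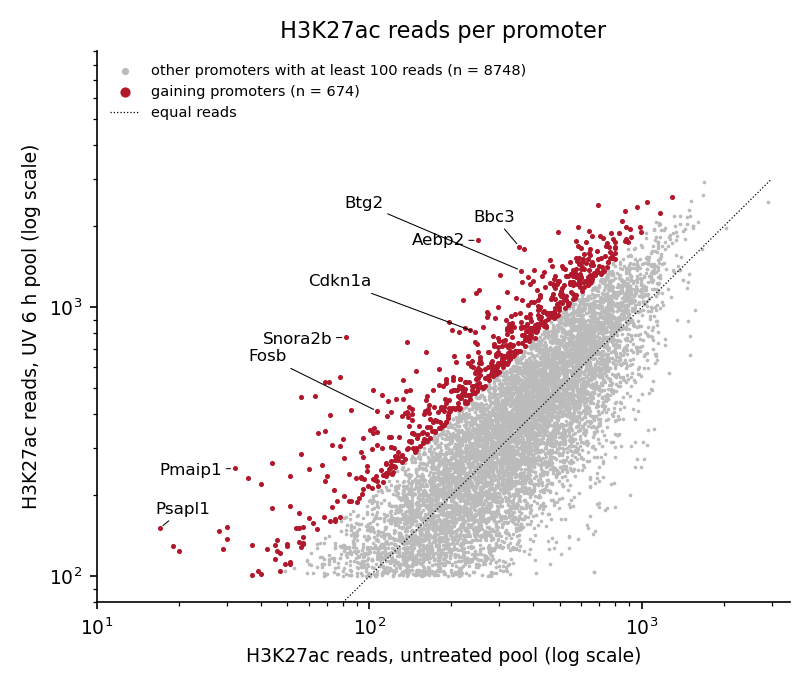
H3K27ac reads per promoter in the UV pool (y axis) and the untreated pool (x axis), both on log scales, for the 9422 promoters with at least 100 reads in the UV pool; each point is 1 promoter and red points are the 674 chosen by the rule. Snora2b lies farthest from the line of equal reads, with 774 UV and 82 untreated reads, and most red points lie along the border that the rule sets.

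The highest log2 ratio belonged to the window of Snora2b, a small nucleolar RNA gene, with 774 reads in the UV pool and 82 in the untreated pool (log2 ratio 3.01). Scaled by pool depth this was a 9.36-fold difference, with an exact 95% interval of 7.45 to 11.9 that covers counting error only. The same reads chose this window and ranked it first, so the interval cannot test the gain. Aebp2, whose product is a cofactor of Polycomb repressive complex 2, had 1775 UV and 251 untreated reads (log2 ratio 2.75). Dcxr, which encodes a sugar-reducing enzyme, had 530 UV and 69 untreated reads (2.68). Pmaip1, which encodes the BH3-only death protein Noxa, had 252 UV and 32 untreated reads (2.48). Psapl1 had 151 UV and 17 untreated reads (2.34), and the remaining promoters of the 10 highest were Snord89 (2.62), A630007B06Rik (2.31) and 3 microRNA genes.

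These 3 microRNA genes form the Mir106b, Mir93 and Mir25 cluster. Their hairpins start within 414 bases of each other, so their windows may share reads and are counted as 1 observation. These are hairpin positions, not transcription start sites. Mir106b had 463 UV and 56 untreated reads, Mir93 had 528 UV and 71 untreated reads, and Mir25 had 553 UV and 78 untreated reads. The cluster lies inside Mcm7, which encodes a subunit of the replicative helicase. The promoter of Mcm7 itself had 525 UV and 457 untreated reads, a log2 ratio of 0.19, and was not a member. Likewise Snora2b lies inside Kansl2, whose promoter had 623 UV and 427 untreated reads (0.53). The windows of Mir132 and Mir212 may also share reads, as their hairpins start 294 bases apart. Mir132 had 452 UV and 162 untreated reads, and Mir212 had 396 UV and 132 untreated reads. The RNA files hold no row for these microRNAs, so their own level was not measured. Their mature sequences are shown with the seed, bases 2 to 8, in capitals, since they group the clusters by the targets they can pair with.
mmu-miR-106b-5p: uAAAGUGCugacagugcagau
mmu-miR-93-5p: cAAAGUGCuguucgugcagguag
mmu-miR-25-3p: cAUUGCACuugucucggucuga
mmu-miR-132-3p: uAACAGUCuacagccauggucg
mmu-miR-212-3p: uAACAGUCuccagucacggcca
The first pair shares the seed AAAGUGC, miR-25-3p has AUUGCAC, and miR-132-3p and miR-212-3p share AACAGUC. The other microRNA members were Mir1931, Mir423, Mir3092, Mir1938, Mir3097, Mir763 and Mir29a. Mir423 lies inside Nsrp1, which the files call Ccdc55 (839 UV and 394 untreated reads, log2 ratio 1.06) and Mir1938 inside Ifrd1 (1051 UV and 392 untreated reads, 1.39), both of which were members too.

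Genes whose promoter gained H3K27ac were called higher in RNA at a larger share than all genes tested. Of the 674 genes, 602 had a row in the RNA files and 595 had enough counts to test. In RNA from whole cultures, more transcript per cell and more cells that make it cannot be told apart. RNA was higher after UV for 99 of these (16.6%) and lower for 84 (14.1%) by the quasi-likelihood test of edgeR (threshold 0.05 on its Benjamini-Hochberg adjusted p, over all genes tested), and 412 were not called (69.2%, against 70.4% at non-gaining promoters). Over all 14925 genes tested, 7.7% were called higher and 12.4% lower, and over the non-gaining promoters with at least 100 reads 10.9% were higher and 18.7% lower. Changes of at least 2-fold were called for 38 members higher (6.39%, against 1.81% of all tested genes and 2.01% at non-gaining promoters) and 25 lower (4.2%, against 5.37% and 7.73%). The median RNA log2 fold change was 0.10 among members and -0.01 among all tested genes. The CPM of the 3 UV and 3 untreated libraries did not overlap for 164 of the 595 members tested that were higher and 108 that were lower. Over all 14925 genes tested these were 2479 higher (16.6%) and 2588 lower (17.3%). Of the 7869 genes tested at non-gaining promoters they were 1752 higher and 1998 lower. Scaling by library totals alone moved the median of all genes to -0.24 and that of members to -0.14. Then 82 members were higher (13.8%, against 6.06% of all genes tested) and 191 lower (32.1%, against 25.1%). Without UV replicate 1, 93 members were higher (15.6%, against 7.62% of all genes tested) and 165 lower (27.6%, against 18.3%). The members' median was then -0.07, below the 0.05 of all genes tested. It was 0.21 without UV replicate 2 and 0.14 without UV replicate 3. The medians of all genes tested were then -0.07 and -0.03. Without UV replicate 3, 72 members were higher (12%, against 3.75% of all genes tested) and 46 lower (7.69%, against 7.31%). Without untreated replicate 1 the members' median was 0.26, against 0.12 for all genes tested. Here 141 members were higher (23.6%, against 11.5% of all genes tested) and 66 lower (11%, against 9.68%). Without untreated replicate 2 the members' median was 0.22, against 0.03. Here 122 members were higher (20.4%, against 12.5%) and 42 lower (7.02%, against 7.49%). Without untreated replicate 3 the members' median was 0.16, below the 0.19 of all genes tested.

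Across all promoters with at least 100 reads, the share of genes called higher was largest where the H3K27ac ratio was highest. It was 11.2% at log2 ratios under -0.9, 9.95% at -0.9 to -0.5, 8.94% at -0.5 to 0, 11.7% at 0 to 0.5 and 12.7% at 0.5 to 0.9. Within the gaining promoters it was 15.5% at ratios of 0.9 to 1.2, 17.9% at 1.2 to 1.6 and 20.9% at 1.6 or more. The share called lower was 22.4% at ratios under -0.9 and 8.96% at 1.6 or more, where 67 genes were tested. No test was made of this trend. Gene length moved with the RNA call: members called higher had a median length of 7423 bases, against 31929 for those called lower and 27883 for those not called. At non-gaining promoters the genes called higher were also the shortest, with a median of 7298 bases. Those called lower (23539 bases) were there shorter than those not called (26975 bases), unlike among members. The part of gene length in these calls was not tested.

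**Figure D2:**
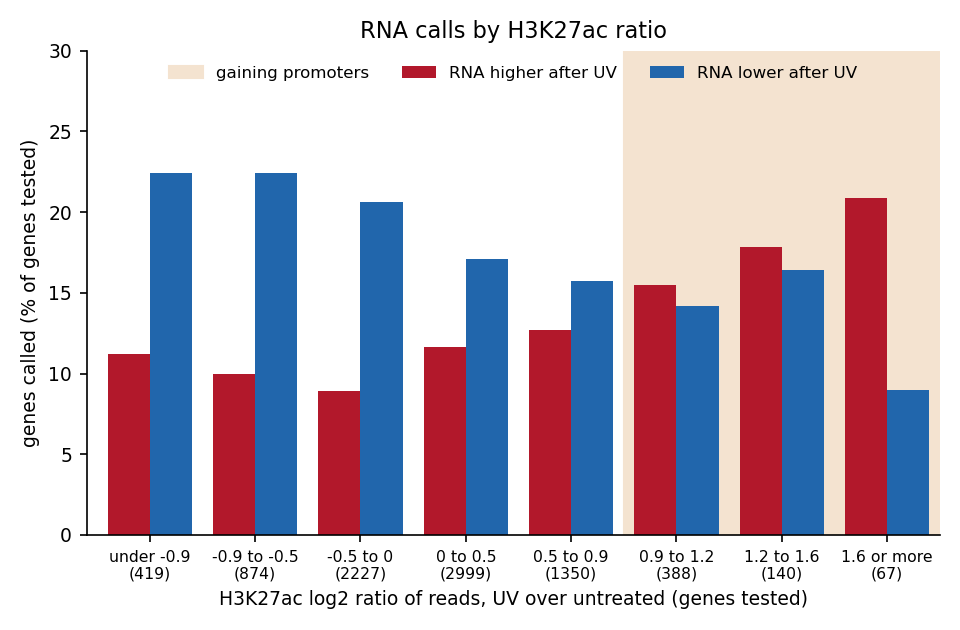
Share of tested genes called higher (red) or lower (blue) in RNA after UV at an edgeR adjusted p below 0.05 (y axis, percent), by the H3K27ac log2 ratio of the promoter (x axis, with the number of genes tested); the shaded classes are the gaining promoters. The red bars are 15.5%, 17.9% and 20.9% in the shaded classes, against 8.94% to 12.7% to the left of them.

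The p53 targets were the list with the most members, as 17 of its 27 promoters with at least 100 reads gained H3K27ac, beside 7.15% of all such promoters; since the rule used these reads, nothing is read from that count. In RNA, 5 of the 17 rose, 1 fell and 11 were not called, beside 7.7% higher and 12.4% lower of all genes tested. Of the 12 p53 targets tested that were no members, 4 rose, 2 fell and 6 were not called. Library totals alone gave 3 members higher and 3 lower, and no filter on low counts gave 3 higher and 2 lower. Pmaip1 stood at 44.3, 19.3 and 32.2 CPM in the UV libraries, against 2.28, 1.73 and 1.30 CPM in untreated ones. All UV values lay above all untreated values, with a log2 fold change of 4.19 ± 0.30 (SE, edgeR adjusted p = 6.55e-08). Cdkn1a stood at 179.7, 55.4 and 91.9 CPM in UV libraries, against 29.9, 19.9 and 18.4 CPM in untreated libraries. These did not overlap either, although UV replicate 1 was far above the others, and the log2 fold change was 2.26 ± 0.32 (edgeR adjusted p = 6.96e-05). Gadd45a, which encodes a growth arrest and DNA repair protein, stood at 70.0, 73.6 and 81.3 CPM in UV libraries, against 4.30, 6.87 and 5.89 CPM in untreated libraries, a log2 fold change of 3.72 ± 0.21 (edgeR adjusted p = 4.15e-09). Its UV libraries were nearly equal, unlike those of Cdkn1a. Ccng1, which encodes cyclin G1, and Phlda3, which encodes an inhibitor of the kinase Akt, rose by less, with log2 fold changes of 0.76 and 0.62 (edgeR adjusted p = 0.0436 and 0.0481), and neither call held in every subset of the libraries. Ccng1 was not called without UV replicate 1 or 3 or without untreated replicate 2 or 3 (edgeR adjusted p = 0.0776 to 0.138), nor with library totals alone (0.0811) or no filter on low counts (0.053). Phlda3 was not called without UV replicate 1 or 3 or without untreated replicate 2 (edgeR adjusted p = 0.0547 to 0.183), nor with size factors of DESeq2 (0.0502), library totals alone (0.0645) or no filter (0.0815).

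Fas, which encodes a death receptor, fell to 6.19, 14.6 and 16.6 CPM in UV libraries, against 11.2, 55.3 and 41.5 CPM in untreated libraries. The groups overlapped, since untreated replicate 1 lay below 2 of the UV libraries. The log2 fold change was -1.53 ± 0.41 (edgeR adjusted p = 0.0113), and it was not called without untreated replicate 2 (-0.94, edgeR adjusted p = 0.324) or without untreated replicate 3 (-1.28, 0.168). Library totals alone (edgeR adjusted p = 0.0549) and the Wald test of DESeq2 (adjusted p = 0.112) also missed the call.

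Among the 11 p53 targets that were not called were some of the largest H3K27ac gains. Bbc3 had 1680 H3K27ac reads in the UV pool and 356 in the untreated pool (log2 ratio 2.19). Its RNA was 6.44, 4.38 and 5.62 CPM in UV libraries and 3.68, 4.96 and 4.98 CPM in untreated libraries, which overlap (log2 fold change 0.27 ± 0.26, edgeR adjusted p = 0.619). Eda2r, which encodes a receptor of the tumour necrosis factor family, had 264 UV and 44 untreated H3K27ac reads (2.22), and an RNA log2 fold change of -0.39 ± 0.30 (edgeR adjusted p = 0.471). Sesn2, which encodes the mTORC1 inhibitor sestrin 2, had 808 UV and 214 untreated H3K27ac reads (1.84). Its RNA was 26.8, 11.1 and 15.7 CPM in UV libraries and 33.9, 25.8 and 26.1 CPM in untreated libraries (log2 fold change -0.68 ± 0.25, edgeR adjusted p = 0.0615). Sesn2 was called lower with size factors of DESeq2 (edgeR adjusted p = 0.0478), no filter on low counts (0.0385) or library totals alone (0.011). Mdm2, which encodes the ubiquitin ligase that degrades p53, had 1333 UV and 552 untreated H3K27ac reads (1.25). Its RNA was 125.9, 65.3 and 75.1 CPM in UV libraries and 107.9, 80.6 and 69.1 CPM in untreated libraries (log2 fold change 0.05 ± 0.24, edgeR adjusted p = 0.967). The 7 others were Ei24, the nuclease gene Aen, the death receptor gene Tnfrsf10b, Trp53inp1, the translesion polymerase gene Polk, Zmat3 and the apoptosome gene Apaf1, with RNA log2 fold changes from -0.54 (Apaf1) to 0.16 (Aen). Without UV replicate 1, Eda2r (-0.91), Sesn2 (-1.11), Zmat3 (-0.57), Apaf1 (-0.76) and Fas were called lower, and 3 of the 17 were called higher. Mdm2 (-0.31), Aen (-0.18) and Polk (-0.27) were then below 0 but not called. Apaf1 was also called lower with a minimum of 1 CPM (edgeR adjusted p = 0.0329) or library totals alone (0.00108), which also called Ei24 lower (0.0212).

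**Figure D3:**
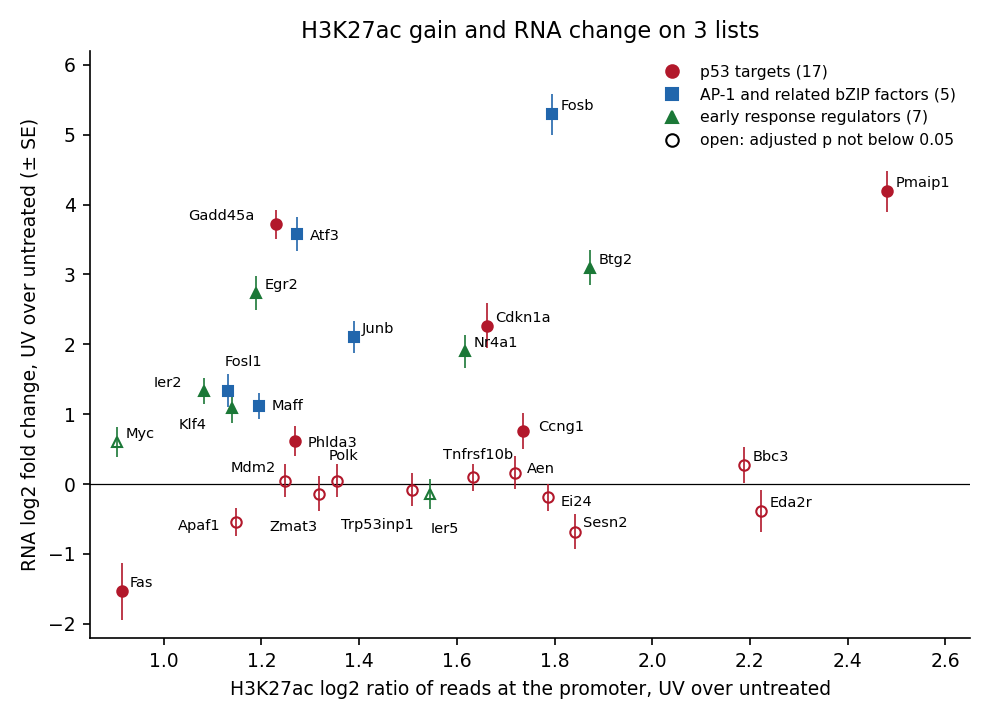
RNA log2 fold change, UV over untreated, with its standard error (y axis) and H3K27ac log2 ratio of promoter reads, UV over untreated (x axis), for members on the lists of p53 targets (17), AP-1 factors (5) and early response regulators (7); open symbols were not called. Bbc3 and Eda2r lie near an RNA change of 0 at H3K27ac ratios above 2, while Pmaip1 has both a ratio of 2.48 and an RNA change of 4.19.

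All 5 members on the list of AP-1 and related leucine zipper factors rose in RNA, beside 7.7% of all genes tested. Of the 9 list genes tested that were no members, 4 rose, 3 fell and 2 were not called. They were among 13 promoters of the list with at least 100 reads. Fosb stood at 60.7, 40.7 and 50.4 CPM in UV libraries, against 0.829, 0.910 and 2.03 CPM in untreated libraries, with no overlap (log2 fold change 5.29 ± 0.29, edgeR adjusted p = 3.67e-09). Its promoter had 411 UV and 107 untreated H3K27ac reads. Atf3, a stress-induced repressor and activator, stood at 35.3, 19.9 and 31.3 CPM in UV libraries, against 1.87, 2.46 and 2.83 CPM in untreated libraries (3.58 ± 0.25, edgeR adjusted p = 4.72e-08). Its promoter had 419 UV and 164 untreated H3K27ac reads. Junb rose by a log2 fold change of 2.11, Fosl1 by 1.34 and Maff by 1.11, at H3K27ac log2 ratios of 1.39, 1.13 and 1.19. All 5 stayed called whichever library was left out. The difference between this list and the p53 targets in the share that rose was not tested.

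Early response regulators gave 7 members of 26 promoters with at least 100 reads, and 5 rose in RNA, beside 7.7% of all genes tested. Btg2 stood at 478.2, 263.8 and 353.6 CPM in UV libraries, against 36.6, 50.6 and 40.9 CPM in untreated libraries, and its H3K27ac reads were 1369 in the UV pool and 362 in the untreated pool. The RNA log2 fold change was 3.10 ± 0.25 (edgeR adjusted p = 2.45e-07). The zinc finger factor gene Egr2 rose by 2.73, the orphan receptor gene Nr4a1 by 1.90, Ier2 by 1.33 and the Krüppel-like factor gene Klf4 by 1.08 on the log2 scale. Ier5 had 746 UV and 245 untreated H3K27ac reads, and its RNA was 194.7, 118.5 and 155.9 CPM in UV libraries and 165.5, 191.1 and 160.0 CPM in untreated libraries, which overlap. Myc had an RNA log2 fold change of 0.60 ± 0.22 (edgeR adjusted p = 0.0585) at an H3K27ac log2 ratio of 0.90, and was called higher without UV replicate 2 (0.78, 0.00638) and without untreated replicate 1 (0.69, 0.0281), and also with a minimum of 1 CPM (edgeR adjusted p = 0.0468) or by the Wald test of DESeq2 (adjusted p = 0.0452). Library totals alone called Ier5 lower (-0.39, edgeR adjusted p = 0.0247). Of the 21 list genes tested that were no members, 9 rose, 3 fell and 9 were not called.

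The lists of MAP kinase phosphatases, EGF receptor signalling and stress kinases held 7 members, of which 2 rose, 3 fell and 2 were not called. Over all genes tested, 7.7% were called higher and 12.4% lower. Among tested non-members of these lists, in that order, 3, 1 and 2 rose and 2, 2 and 7 fell. The remaining 2, 10 and 12 were not called. Of the 4 MAP kinase phosphatase members, Dusp1 rose to 56.5, 51.5 and 60.8 CPM in UV libraries, against 20.9, 15.3 and 13.6 CPM in untreated libraries (log2 fold change 1.76 ± 0.19, edgeR adjusted p = 5.77e-06). Dusp16 fell to 13.1, 14.9 and 14.4 CPM in UV libraries, against 19.5, 29.2 and 24.2 CPM in untreated libraries (-0.78 ± 0.19, edgeR adjusted p = 0.00551), and was not called without untreated replicate 2 (-0.50, 0.0796). Dusp5 (-0.59) and Dusp10 (-0.49) were not called, and both were called lower without UV replicate 1 (-0.95 and -0.93). Library totals alone also called Dusp10 lower (edgeR adjusted p = 0.0269). Of the 2 members of the EGF receptor list, the ligand gene Hbegf rose by 2.41 ± 0.35 (edgeR adjusted p = 8.8e-05), whereas the receptor inhibitor gene Errfi1 fell by 1.09 on the log2 scale (SE 0.21, edgeR adjusted p = 0.00106). Errfi1 stood at 67.1, 40.8 and 57.9 CPM in UV libraries, against 131.0, 122.8 and 99.9 CPM in untreated libraries. Map2k3, a kinase gene upstream of p38 and the only member of the stress kinase list, fell by 0.88 (edgeR adjusted p = 0.0103) and lost its call without UV replicate 3 (-0.74, 0.0894) and without untreated replicate 2 (-0.75, 0.0732).

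Inflammatory genes of the NF-kB list had 6 members, of which 4 rose, beside 7.7% of all genes tested. Among tested non-members of this list, 3 rose, 3 fell and 14 were not called. Il11, a cytokine gene, stood at 75.3, 37.9 and 48.6 CPM in UV libraries, against 9.95, 7.14 and 7.77 CPM in untreated libraries (log2 fold change 2.70 ± 0.24, edgeR adjusted p = 6.15e-07). Ptgs2, which encodes cyclooxygenase 2, rose by 1.85 ± 0.41 (edgeR adjusted p = 0.00312) and was not called without untreated replicate 2 (1.69, 0.0709). The NF-kB subunit genes Rela and Nfkb2 rose by 0.76 and 0.70 (edgeR adjusted p = 0.00745 and 0.0235), the second of which was not called without UV replicate 3 (0.66, 0.153), with library totals alone (0.465, 0.125) or with no filter (0.0514), and Relb had a log2 fold change of -0.45 ± 0.33 (edgeR adjusted p = 0.441). Il1rl1, the receptor gene of interleukin 33, was among the most highly expressed members, at 2454, 1557 and 1998 CPM in UV libraries and 2526, 2383 and 1842 CPM in untreated libraries. Its promoter had 1524 UV and 573 untreated H3K27ac reads, and its RNA was not called (-0.17 ± 0.22, edgeR adjusted p = 0.765), except with library totals alone (-0.42, edgeR adjusted p = 0.0356). Of the 5 members among ATF4 and unfolded protein response targets, Ddit4, which encodes an mTORC1 inhibitor, rose by 3.00 ± 0.19 (edgeR adjusted p = 1.63e-08) and the phosphatase subunit gene Ppp1r15a by 2.14. The transporter gene Slc7a5 (0.24), Cebpg (-0.05) and the asparagine synthetase gene Asns (0.31) were not called. Among tested non-members of the ATF4 list, 4 rose, 1 fell and 11 were not called. Slc7a5 was at -0.34 without UV replicate 1, and library totals alone called Cebpg lower (edgeR adjusted p = 0.0469).

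Gaining promoters on the matrix list included Tnc and Col5a2, and those on the TGF-beta list included Inhba, Skil and Smad7, and the RNA of these 5 genes did not pass the test. Among tested non-members of the matrix list, 5 rose, 3 fell and 11 were not called. On the TGF-beta list these were 1, 6 and 6. Tnc, which encodes tenascin C, had 962 UV and 271 untreated H3K27ac reads, and Inhba, which encodes an activin subunit, had 259 UV and 67. Without UV replicate 1, Inhba (-0.84) and Smad7 (-1.07) were called lower, Tnc (-0.25), Col5a2 (-0.23) and Skil (-0.35) were below 0 but not called, and without untreated replicate 1 Skil was called higher (0.80). Smad7 was also called lower with library totals alone (edgeR adjusted p = 0.0338) or no filter (0.0384). Of 3 members among actin and YAP targets, Tagln2 was called higher (0.64, edgeR adjusted p = 0.0479), a call lost without UV replicate 1 (0.46, 0.128) or 3 (0.68, 0.173), with size factors of DESeq2 (0.0586) or with no filter (0.123), and Cyr61 was not called (-0.19). Among tested non-members of that list, 3 rose, 4 fell and 20 were not called. Ctgf stood at 573.9, 155.9 and 224.3 CPM in UV libraries, against 271.9, 36.3 and 27.6 CPM in untreated libraries. Replicate 1 was the highest library of both groups, the groups overlapped, and the call was missed (log2 fold change 1.51 ± 0.62, edgeR adjusted p = 0.1). Ctgf was called higher without UV replicate 1 (0.75, edgeR adjusted p = 0.0134), 2 (1.84) or 3 (1.72), and without untreated replicate 1 (3.40), and also with size factors of DESeq2 (edgeR adjusted p = 0.0435) or no filter (7.81e-07). With the replicate number as a block it was called higher too (2.06, edgeR adjusted p = 2.7e-14). No promoter of the 14 heat shock and oxidative stress genes with at least 100 reads was a member, nor any of the 9 such small nucleolar RNA host genes.

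The 3 ribosomal protein members, Rpl36al, Rpl17 and Rps27l, rose by 0.85, 0.94 and 0.85 on the log2 scale, as did 70 of the 74 other ribosomal protein genes tested. Their FAIRE differences were -0.70, -0.53 and -0.52. The 3 members among replication histone genes, Hist1h2an, Hist1h2ab and Hist1h4a, fell by 3.00, 1.57 and 0.57, as did 46 of the 50 other histone genes tested, although their promoters gained H3K27ac. Hist1h2an had 158 UV and 62 untreated H3K27ac reads, and its RNA was 0.990, 0.539 and 0.290 CPM in UV libraries, against 5.49, 4.82 and 4.36 CPM in untreated libraries. The Hist1h4a call was lost without UV replicate 3 or without any of the untreated libraries (edgeR adjusted p = 0.0529 to 0.134), or with no filter (0.0893), and the Rpl36al call without UV replicate 3 (0.0717). Both families have near-identical copies, between which the counting could split reads. The clock gene Arntl fell by 1.35 (edgeR adjusted p = 6.21e-05), and Hoxc6, the only Hox member, had an RNA log2 fold change of 0.79 (edgeR adjusted p = 0.141).

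The largest RNA changes among members outside these lists were those of 1810011O10Rik, which rose to 74.3, 35.8 and 46.7 CPM in UV libraries, against 1.61, 1.14 and 1.15 CPM in untreated libraries (log2 fold change 5.34 ± 0.29, edgeR adjusted p = 3.67e-09). Its promoter had 132 UV and 50 untreated H3K27ac reads. 1700056E22Rik rose by 3.94, and Dcxr, with the highest H3K27ac ratio of any gene tested that rose, stood at 63.5, 52.1 and 63.4 CPM in UV libraries, against 10.8, 19.7 and 17.8 CPM in untreated libraries (1.89 ± 0.21, edgeR adjusted p = 8.53e-06). The lowest were Ccnf, which encodes cyclin F, the F-box gene Fbxo34 and the kinase gene Mapkapk3. Ccnf fell to 34.7, 14.0 and 17.4 CPM in UV libraries, against 124.3, 93.6 and 78.1 CPM in untreated libraries (-2.16 ± 0.28, edgeR adjusted p = 3.03e-05), while its promoter had 1292 UV and 572 untreated H3K27ac reads. Fbxo34 fell (edgeR adjusted p = 7.78e-06) and had 309 UV and 73 untreated H3K27ac reads. Of the 27 members with an H3K27ac log2 ratio of at least 2, 3 rose in RNA (Dcxr, Pmaip1 and the hyaluronidase gene Hyal1) and 1 fell (Fam110a). A further 16 were not called and 7 were not tested, beside 16.6% higher and 14.1% lower of all members tested. Hyal1 and Fam110a are named after their values were seen. Aebp2 was among those not called, at 113.4, 67.4 and 84.7 CPM in UV libraries and 121.8, 118.7 and 97.3 CPM in untreated libraries (-0.35 ± 0.21, edgeR adjusted p = 0.309), and was called lower without UV replicate 1 (-0.58, 0.0126) and with library totals alone (-0.60, edgeR adjusted p = 0.00372). Highly expressed members that were not called also included Col5a2, Eif4a1 and Ltbp1, with log2 fold changes of 0.30, 0.20 and 0.03. Ltbp1 was at -0.41 without UV replicate 1.

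**Figure D4:**
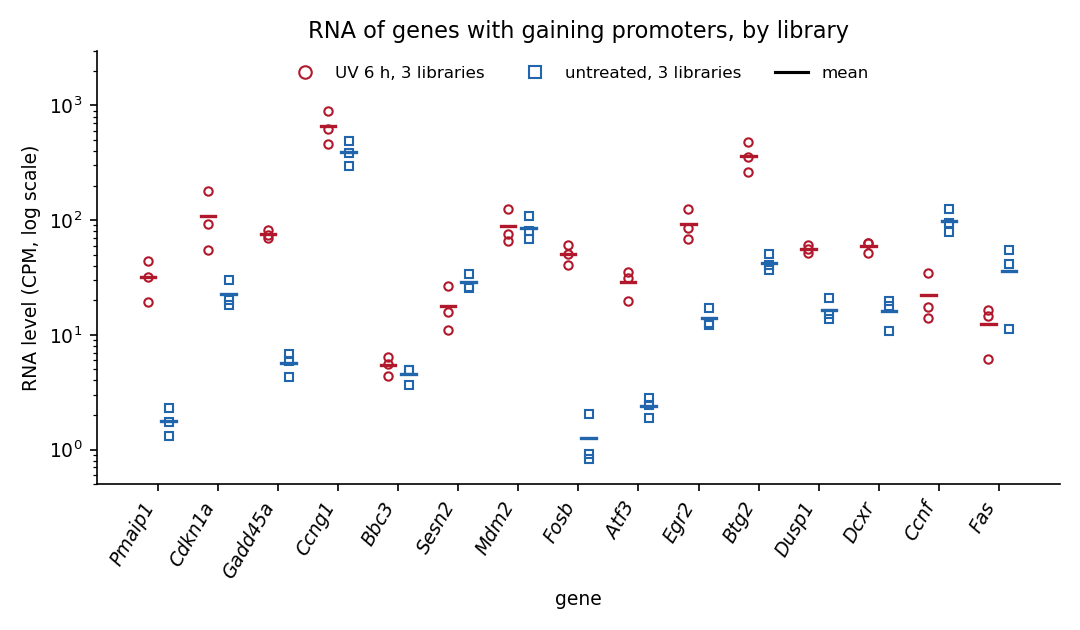
RNA level in CPM (y axis, log scale) of 15 genes with gaining promoters in the 3 UV libraries (red circles, left of each pair) and the 3 untreated libraries (blue squares, right); bars are group means. Pmaip1, Gadd45a, Fosb, Atf3, Egr2 and Btg2 lie higher in every UV library, Ccnf lies lower in every UV library, and Bbc3, Mdm2 and Fas overlap between the groups.

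Of the 533 members with a RefSeq start site, or for microRNAs a hairpin start, 105 had another row within 1000 bases, whose window may share reads. Such rows could still differ. Gfer had 571 UV and 496 untreated H3K27ac reads, and the member Noxo1, 78 bases away, had 1492 UV and 578 untreated reads. There were 24 pairs of 2 members, 19 of them divergent, and both genes were tested in 15 pairs. In none of these 15 did both rise, in 1 both fell, in 4 exactly 1 gene rose, and in 8 neither was called. Of all members tested, 16.6% rose and 14.1% fell, and whether pairs differ from other members was not tested. The pairs named here were chosen after their values were seen. At the pair of 1700056E22Rik and Dusp10, whose start sites are 383 bases apart, H3K27ac reads were 1289 UV and 599 untreated at the first and 1471 UV and 752 untreated at the second. RNA of 1700056E22Rik rose by 3.94, while Dusp10 had a log2 fold change of -0.49. Ppp1r15a rose by 2.14 beside Plekha4 (0.37, not called), 62 bases away, and Mea1 rose by 0.76 beside Klhdc3, 56 bases away, which fell by 0.55. Whether the RNA counting used strand is not given in the sources used here, so reads from overlapping transcripts of such pairs could not be told apart.

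Open chromatin by FAIRE was lower in the UV pool than in the untreated pool at most gaining promoters. The FAIRE difference, the deposited log2 enrichment over input in the UV pool minus that in the untreated pool, had a median of -0.17 at members, against -0.43 at the other promoters with at least 100 reads. It was above 0 at 199 members (29.5%), against 6.63% of the others; over all 21881 promoters, of which many have few reads, it was 29.9%. The median of members was -0.22 at H3K27ac log2 ratios of 0.9 to 1.2, -0.16 at 1.2 to 1.6 and 0.10 at 1.6 or more, and 65.0% of the 80 promoters in the last class were above 0. These 80 also had less FAIRE enrichment in the untreated pool, with a median of 0.85, against 1.25 for ratios of 0.9 to 1.2. At an untreated FAIRE enrichment of 1 to 1.5, the median difference was -0.19 for 216 members and -0.40 for 2817 others, and at 0.5 to 1 it was -0.02 for 152 members and -0.26 for 1754 others. Above 2.5 it was -0.74 for 14 members and -0.71 for 300 others. With both FAIRE pools scaled to equal promoter totals, the median of members was 0.21 and that of the others -0.06, so the sign of the median depends on the scaling, whereas members lay above the others in both.

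**Figure D5:**
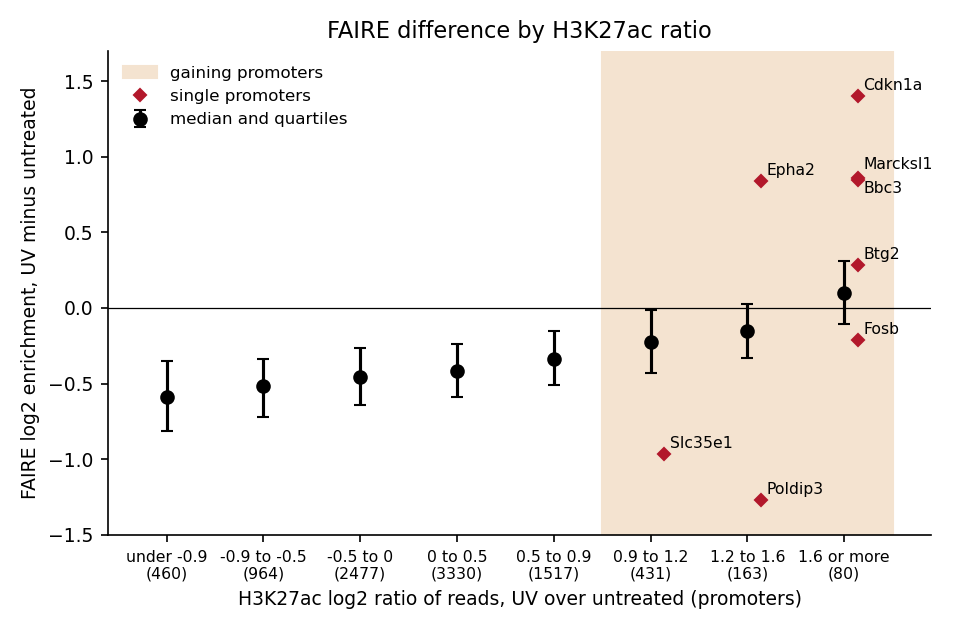
FAIRE log2 enrichment in the UV pool minus the untreated pool (y axis) by H3K27ac log2 ratio of the promoter (x axis, with the number of promoters); black points are medians with quartiles, red diamonds are single promoters and the shaded classes are the gaining promoters. The median is -0.59 in the lowest class and 0.10 in the highest, and Cdkn1a lies at 1.40.

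Cdkn1a was the single promoter of all 21881 with a FAIRE difference of at least 1, which is 0.00457% of promoters. It had 82 FAIRE reads in the UV pool and 26 in the untreated pool, a difference of 1.40, and its depth-scaled ratio was 3.93 with an exact 95% interval of 2.5 to 6.36 from counting error. Its H3K27ac reads were 810 in the UV pool and 245 in the untreated pool, and its RNA rose. Marcksl1, which encodes an actin-binding protein, was next with 159 UV and 93 untreated FAIRE reads (0.86), and its RNA rose to 462.1, 291.7 and 373.2 CPM in UV libraries, against 122.9, 121.6 and 104.1 CPM in untreated libraries (log2 fold change 1.69 ± 0.22, edgeR adjusted p = 3.02e-05). Bbc3 had 76 UV and 41 untreated FAIRE reads (0.85) without a called RNA change. Epha2, an ephrin receptor gene, had 51 UV and 26 (0.84), and its RNA was not called (-0.08) but was called lower without UV replicate 1 (-0.59, edgeR adjusted p = 0.00708). At a difference of at least 0.58 there were 9 members, against 0.708% of all promoters and 0.0686% of the others with at least 100 reads. RNA rose for 4 of these (Cdkn1a, Marcksl1, Fosl1 and Utrn), fell for Orai2 and was not called for Bbc3, Hivep2, Epha2 and Slmap. The shares of all members tested were 16.6% higher and 14.1% lower.

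A FAIRE loss of at least 1 occurred at 2 members, Poldip3 and Gm7367, while 1.05% of all promoters and 2.19% of the others with at least 100 reads lost as much. Poldip3, which encodes a factor of mRNA export, had 66 FAIRE reads in the UV pool and 204 in the untreated pool (-1.27), although its H3K27ac reads were 1348 UV and 567 untreated. Its RNA was 143.7, 117.7 and 116.4 CPM in UV libraries and 163.4, 191.9 and 159.2 CPM in untreated libraries, with no overlap, but did not pass the test (log2 fold change -0.45 ± 0.19, edgeR adjusted p = 0.126); without UV replicate 1 it was called lower (-0.57, 0.0232), as it was with a minimum of 1 CPM (0.0422) or library totals alone (0.000809). Gm7367 had 98 UV and 238 untreated FAIRE reads, and Fam100b and Slc35e1 followed with 100 UV and 242 untreated reads and with 57 UV and 142 untreated reads. H3K27ac reads were also close at Gm7367 (245 UV and 122 untreated) and Fam100b (278 UV and 127 untreated). The windows of Gm7367 and Fam100b may therefore share reads and be 1 observation. At a loss of at least 0.58 there were 58 members (8.61%), against 14.2% of all promoters and 29.5% of the others with at least 100 reads. Of these 58, 5 rose in RNA, Egr2 among them, 8 fell, 41 were not called and 4 were not tested. Of all members tested, 16.6% rose and 14.1% fell, and of all genes tested 7.7% and 12.4%. Members whose RNA rose had a median FAIRE difference of -0.13, with 36.4% above 0, against -0.20 and 21.4% for those whose RNA fell and -0.20 and 26.7% for those not called. Among non-gaining promoters these medians were -0.44, -0.44 and -0.43.

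Promoter motifs were counted on both strands of 300-base RefSeq windows, 651 of them for 520 member genes. The p53 half-site, searched by its consensus, matched 10.9% of member windows, against 6.17% of windows of the non-gaining promoters and 7.30% of all promoters of the table. The cyclic AMP response element TGACGTCA matched 5.68% of member windows, against 3.43% of non-gaining and 2.33% of all promoters, and 9.52% of the 105 windows of members whose RNA rose, against 5.06% of windows of members not called higher. In the same order the p53 half-site matched 14.3% and 10.1%, the CArG box 6.67% and 1.21%, and the AP-1 element TGANTCA 7.62% and 5.06%. A gene can have several windows, and these shares rest on few. The CArG box matched 7 of 105 windows, from only 4 genes (Bet1l, Chmp2a, Egr2 and Pitpna), against 6 of 494 windows. The 10 genes with the cyclic AMP response element were Btg2, Dusp1, Maff, Ppp1r15a, Rcan1, Ccdc86, Chmp2a, Fbxw9, Ndufb2 and Purb. The AP-1 element TGANTCA matched 5.68% of member windows, against 4.36% of non-gaining and 7.11% of all promoters. GGGCGG matched 64.7%, against 67.2% and 48.5%, and CCAAT matched 38.7%, against 38.3% in both. TATAAA matched 8.60%, against 6.01% and 12.2%. The CArG box, the site of serum response factor, matched 2.15%, against 1.14% and 1.45%. Median GC content was 61.3% in member windows, against 62.0% in non-gaining and 57.3% in all promoters. The upstream Cdkn1a window holds 2 separate matches to the p53 half-site, capitalised above. Windows of 13 genes whose RNA rose matched it. Of these, Cdkn1a, Ccng1 and Gadd45a were on the p53 list. Abhd4, Anapc11, Ap4s1, Cox8a, Mea1, Ndufb2, Ndufs4, Pitpna, Rap2b and Rps27l were not. Pmaip1 and Phlda3, p53 targets whose RNA rose, were not among the 13. The Bbc3 window shown, 1 of 3 for that gene, holds only GC boxes in capitals, and the third window also holds CCAAT. A match is only a string of letters and was not tested for binding.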

How the data were processed

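The 15 samples were 2 UV and 2 untreated samples each for H3K27ac and FAIRE, 1 input and 3 UV and 3 untreated RNA libraries of NIH3T3 cells. The deposited promoter tables hold read counts per 1000-base window with both samples of a condition pooled, per the file headers. They also hold the authors' log2 enrichment over input, which was recomputed exactly as the log2 of pool reads over input reads scaled to the pool, with 16 added to each. The UV pools are the columns whose header names DMSO, after the labels' protocol. The RNA files hold the authors' raw counts per gene. The submitters' processing notes name Bowtie 0.12.9, TopHat, MACS2, DESeq2 and the build mm9, with no role for any tool, and the tool that counted RNA reads, and whether it used strand, is not given in the sources used here. A further 8 columns of the deposited tables belong to no sample in the labels and were not used.

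Counts of 14925 of 19069 genes passed filterByExpr and were tested in edgeR 4.0.16 (R 4.3.3, TMM scaling, quasi-likelihood test, Benjamini-Hochberg adjustment over all genes tested), and DESeq2 1.42.0 was an alternative. CPM use TMM-scaled library sizes. The fit was first tested on simulated data. Chromatin ratios with exact 95% intervals were scaled by the pools' input scale, and the intervals cover counting error only. Python 3.11.15, numpy 2.4.6, pandas 2.3.3, scipy 1.17.1 and matplotlib 3.10.9 were used. The promoter pools held 4447997 UV and 4015279 untreated H3K27ac reads and 637080 UV and 1032412 untreated FAIRE reads.

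The promoters and the 17 gene lists were chosen with earlier results of these data known. Genes were named by rule: the 10 highest H3K27ac ratios, the 8 highest and 6 lowest called RNA changes with at least 1 CPM, the 4 highest and 4 lowest FAIRE differences with at least 50 reads, the 3 promoters nearest to each side of the threshold, up to 4 members of each list by ratio, and the 4 most highly expressed members that did not pass the test. Some list members are not reported here. Further list members, FAIRE extremes, neighbouring and motif-bearing genes were named after their values were seen. Promoter and microRNA sequences are RefSeq on GRCm38.p6, to which 670 of the 674 members matched. The overlap with FAIRE peaks was not analysed here, since no mm9 annotation was used.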

Additional observations from a re-analysis of the deposited data

How the results depend on the processing

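The number of gaining promoters was 1763 at a log2 ratio of at least 0.58 and 417 with pools scaled to equal totals. Member genes lower in RNA numbered 191 with library totals alone, where 82 were higher. The members' median was then -0.14 and the median of all genes tested moved to -0.24. The split of members was 13.8% higher and 32.1% lower, against 6.06% and 25.1% of all genes tested. Leaving out 1 library at a time gave 72 to 141 higher, 42 to 165 lower and a median of -0.066 to 0.26. The shares of members were 12% to 23.6% higher and 7.02% to 27.6% lower. Those of all genes tested were 3.75% to 12.5% higher and 7.31% to 18.3% lower. The median of all genes tested was then -0.07 to 0.19, and above that of members without UV replicate 1 or untreated replicate 3. The median FAIRE difference was -0.13 with 1 read added, -0.34 as a read ratio, 0.21 with equal totals and -0.00045 when centred on all promoters. FAIRE gains and losses of at least 0.58 numbered 9 and 58. The cause of these shifts was not tested. DESeq2 called 113 members higher (19%, against 9.19% of all genes tested) and 80 lower (13.4%, against 12.1%). Leaving out the 105 members with another located start site within 1000 bases was an alternative chosen after seeing the data. It gave 84 higher and 71 lower of 512 tested (16.4% and 13.9%, against 7.7% and 12.4% of all genes tested). Members with no RefSeq start site were kept.

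Some uncalled genes changed sign. With library totals alone the log2 fold change was -0.17 for Psapl1, -0.051 for Slc7a5, -0.056 for Tnc, -0.11 for Inhba, -0.15 for Skil, -0.030 for Eif4a1, -0.25 for Ltbp1, -0.10 for Aen, -0.145 for Tnfrsf10b, -0.21 for Polk and -0.22 for Mdm2. Without 1 library it ranged from -0.40 to 0.25 for Psapl1, -0.59 to 0.22 for Epha2, -0.18 to 0.13 for Slc35e1, -0.34 to 0.049 for Ier5, -0.91 to 0.091 for Eda2r, -0.34 to 0.59 for Slc7a5, -0.22 to 0.13 for Cebpg and -0.36 to 0.035 for Il1rl1. It ranged from -0.42 to 0.32 for Cyr61, -0.25 to 0.62 for Tnc, -0.225 to 0.66 for Col5a2, -0.84 to 1.08 for Inhba, -0.35 to 0.80 for Skil and -0.41 to 0.36 for Ltbp1. It ranged from -0.42 to 0.015 for Ei24, -0.18 to 0.43 for Aen, -0.35 to 0.19 for Trp53inp1, -0.27 to 0.41 for Polk, -0.57 to 0.12 for Zmat3 and -0.31 to 0.35 for Mdm2. Over the 80 genes checked, 833 values kept direction and call, 33 lost the call, 47 gained it and 46 changed sign.

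With the replicate number as a block, 106 members were higher and 107 lower, with a median of 0.09, and Psapl1 (-0.035) and Ltbp1 (-0.031) changed sign. The block also brought calls, by edgeR adjusted p, for Ctgf (2.06, 2.7e-14), Sesn2 (0.00083), Smad7 (0.00939), Dusp5 (0.015), Dusp10 (0.0367), Myc (0.0475) and Apaf1 (0.0499). Over all genes tested the block called 1276 higher and 2067 lower, against 1149 and 1854 without it. With the block, 17.8% of members were higher and 18% lower, against 8.55% and 13.8% of all genes tested. Same-numbered libraries deviated from their group means with correlations of 0.155, -0.58 and 0.504. With 3 libraries per group these cannot decide whether the numbers pair the libraries. Overlap with FAIRE peaks was not analysed at any setting. FAIRE depth limits single promoters, with a median of 51 UV and 69 untreated reads at members.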
